A study of Homo sapiens with 20 samples.

Results

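Cultures of HCT-116, a widely used cell line from a human colorectal cancer, were compared after synchronisation in G2 and while growing asynchronously. The comparison used 8 of the 20 total RNA libraries of the study, chosen by their labels: 4 of G2 cells and 4 of asynchronous cells, with every gene and every repeat subfamily of the count table. The asynchronous cells were untreated, received no thymidine, and were collected at 0 h. The G2 cells were held in 2 mM thymidine for 16 h, transferred to fresh medium for 7 h and collected before any drug was added. The other 12 libraries, 4 for each of 3 drug treatments of G2 cells, entered the fit to share the estimate of spread. They are otherwise named only where their levels stand beside a result. After the release, each drug acted for 3 h before collection. The concentration of MG132 was 20 µM, both alone and when combined with α-amanitin, which was at 50 µg/ml. That of bortezomib was 100 nM. All groups are the same cell line, so the asynchronous culture differs from the G2 culture both in the cell cycle phases it holds and in not having met thymidine, and these cannot be told apart. The share of cells in each phase is not given in the sources used here. Whether the replicates are separate cultures is not stated in the labels, and p-values therefore speak only of the spread among these libraries, part or all of which may be technical.

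Excess thymidine feeds back on ribonucleotide reductase, lowers the supply of dCTP and stalls replication, and cells released from it pass together through S phase towards mitosis. Transcription follows the cycle in waves: E2F factors drive genes of DNA replication around the G1/S transition, replication-dependent histone mRNAs accumulate with DNA synthesis, and the MuvB complex with B-MYB and FOXM1 drives the genes of mitosis in G2. The promoters of many of this last group carry a cell cycle homology region (CHR) close to the start site and CCAAT boxes upstream of it.

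The libraries fell into 3 classes of composition that crossed both groups, called technical classes below. Whether they reflect different library preparations is not given in the sources used here. Totals ran from 28373619 to 35908799 counts. The protein-coding share was 67.6% for asynchronous replicate 1, 68.3% for G2 replicate 1 and between 80.1% and 82.2% for the other 6 libraries. GC-rich genes were over-represented in asynchronous replicate 3 and G2 replicate 2. The slopes of these libraries were 0.50 and 0.36 log2 units per 10 percentage points of GC content. Asynchronous replicates 2 and 4 and G2 replicates 3 and 4 lay within both limits and are called the class with neither skew. Their slopes were -0.26 and -0.19 in the asynchronous and -0.078 and 0.0084 in the G2 libraries, so a smaller GC difference between the groups remained in this class. Its part in the differences of this class was not tested. Deviations from the group mean correlated across genes at 0.805 between the pair of low protein-coding share, 0.875 between the GC-rich pair and 0.708 to 0.797 between asynchronous replicates 2 or 4 and G2 replicates 3 or 4. Beside the calls described gene by gene stand their G2 minus asynchronous differences within the low protein-coding, GC-rich and neither classes, in that order, and beside the lists the calls of a fit that adds the class as a term. That fit, the class term below, was chosen after seeing the data. The classes were set by composition without use of the group, but from the same counts that are tested, so they are not independent of them. Among the drug-treated libraries in that fit, MG132 replicate 4 was GC-rich and MG132 replicate 2 formed a GC-poor class of its own. Fitted alone without the term, the 8 libraries gave 8 called genes.

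**Figure D1:**
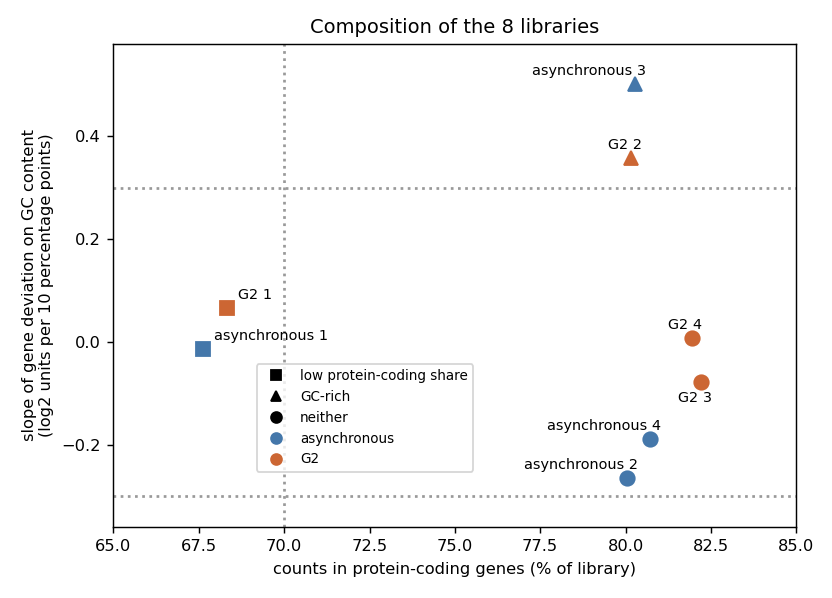
Share of counts in protein-coding genes (x axis, percent) against the slope of gene deviations on GC content (y axis, log2 units per 10 percentage points) for the 8 libraries; colour marks the group, shape the class, and dotted lines the limits of 70% and 0.3 in either direction. Each class holds libraries of both groups: asynchronous replicate 1 lies beside G2 replicate 1 on the left, and asynchronous replicate 3 with G2 replicate 2 at the top.

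Of 18959 genes tested, 397 (2.09%) were called at an adjusted p under 0.05 (edgeR quasi-likelihood test, Benjamini-Hochberg over all genes tested): 369 higher in G2 cells (1.95%) and 28 lower (0.148%). Called genes were mostly low in level. Of the 369 higher genes, 212 had a mean log2 CPM (CPM are counts per 1000000 of the TMM-scaled library) of at most 1 over the 8 libraries, where 5974 genes were tested, and 67 were above 3, where 10141 genes were tested; of the 28 lower genes, 18 were above 3. The median GC content of the higher genes was 54.0%, against 48.7% for all genes tested. Among protein-coding genes 313 of 13755 were called higher (2.28%) and 24 lower (0.174%), and among lncRNA genes 39 of 2750 higher (1.42%) and 2 lower (0.0727%). The groups' libraries did not overlap for 359 of the 369 higher and 24 of the 28 lower genes; over all tested genes the same held for 1090 with G2 above (5.75%) and 358 with G2 below (1.89%). Within classes, 395 of the 397 genes differed in the called direction in all 3; these are the libraries that chose them, and of all genes tested 46.8% had 1 sign in all 3. All 397 were called again with the class term, which called 1442 genes higher (7.61%) and 685 lower (3.61%). The class-term counts of the lists below are to be read against these shares. With the term and the 8 libraries alone, 1814 of 17412 genes were called higher (10.4%) and 1405 lower (8.07%).

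Single calls depended on the processing. Of 45 called genes and subfamilies examined under 18 settings other than the omission of 1 library, the 8 libraries alone ended 44 calls, the omission of both libraries of low protein-coding share 38, mitochondrial mRNA scaling 37, a block for the letter in each sample code, which the labels do not explain, 30, a replicate block 23, no filter 16, a strict filter 14, RLE and total library size scaling 10 each, limma-voom 8 and the 4 libraries of neither skew 6. The class term, DESeq2 and limma-voom with quality weights ended none, and the remaining settings at most 4.

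**Figure D2:**
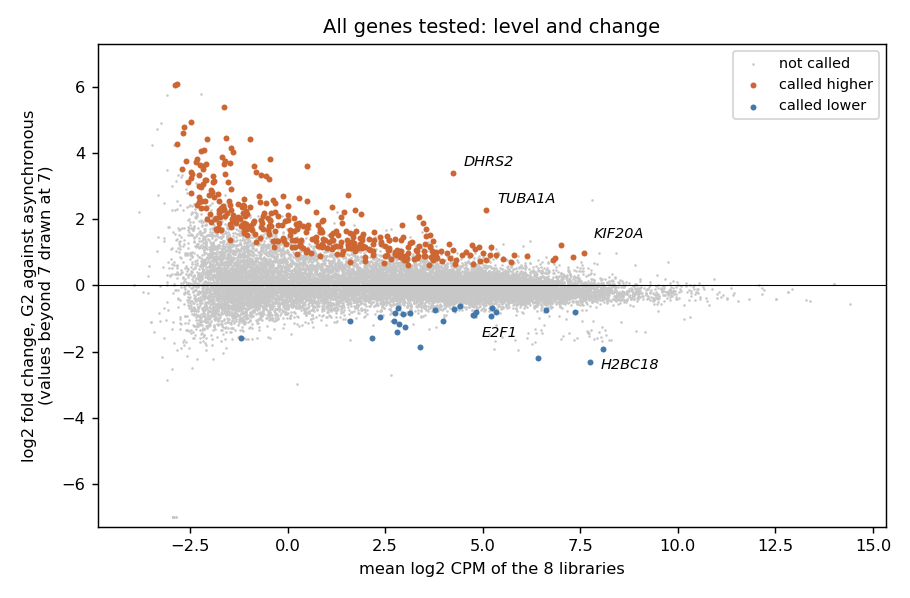
Mean level over the 8 libraries (x axis, log2 CPM) against the log2 fold change of G2 over asynchronous cells (y axis) for all genes tested; colours mark called genes. The 369 genes called higher crowd at low levels, and DHRS2, TUBA1A and KIF20A stand apart among better expressed genes.

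Genes of mitotic entry were higher in part. In RNA from whole cultures, fewer cells in a phase and less RNA per cell cannot be told apart. Of 20 tested members of the list of kinases, cyclins and phosphatases, 2 rose, CDC25C and AURKA, and none fell; the median log2 fold change was 0.26, against -0.042 for all genes. CDC25C, whose phosphatase product activates CDK1, lies on hg38 chromosome 5 at 138285265-138338355. CDC25C reached 16.4, 15.9, 21.9 and 13.8 CPM in asynchronous replicates 1 to 4, and 39.98, 36.4, 32.98 and 27.9 CPM in G2 replicates 1 to 4. Every G2 library lay above every asynchronous one (log2 fold change 1.01, SE 0.204, adjusted p = 0.0118), and the differences within classes were 1.26, 0.72 and 1.01. AURKA encodes the kinase that matures centrosomes and activates PLK1. Levels of AURKA were 107, 105, 127 and 136 CPM in asynchronous replicates 1 to 4 and 215, 238, 191 and 208 CPM in G2 replicates 1 to 4. Again the groups did not overlap (log2 fold change 0.84, SE 0.186, adjusted p = 0.0204; within classes 1.01, 0.90 and 0.74). CDC25C was not called without asynchronous replicate 4 (adjusted p = 0.0579). It also missed the threshold when scaled by mitochondrial mRNA (adjusted p = 0.185), in the 8 libraries alone (0.0935), with a block for the code letter (0.109) or without both libraries of low protein-coding share (0.172). AURKA missed the threshold without asynchronous replicates 1 or 2 or G2 replicates 1, 2 or 4 (adjusted p = 0.0507 to 0.0653). The same held when scaled by mitochondrial mRNA (adjusted p = 0.288), in the 8 libraries alone (0.151), with a block for the code letter (0.0729) or without both libraries of low protein-coding share (0.172).

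The cyclins themselves missed the threshold. CCNB1 and CCNB2 encode the B-type cyclins that bind CDK1. CCNB1 was at 474, 298, 418 and 375 CPM in asynchronous replicates 1 to 4 and at 754, 648, 487 and 504 CPM in G2 replicates 1 to 4. CCNB2 reached 107, 71.6, 88.7 and 74.2 CPM in asynchronous replicates 1 to 4, and 175, 149.6, 118 and 121 CPM in G2 replicates 1 to 4. In both, the lowest G2 library was above the highest asynchronous one, but for CCNB1 by only a small margin (log2 fold change 0.61, SE 0.231, adjusted p = 0.213), and CCNB2 came nearer (log2 fold change 0.72, SE 0.203, adjusted p = 0.0708). With the class term both were called higher (adjusted p = 0.0126 and 0.00130), and within classes the differences were 0.67, 0.63 and 0.57 for CCNB1 and 0.71, 0.75 and 0.71 for CCNB2. That term called 8 of the 20 list members higher and none lower, adding CDK1 (log2 fold change 0.53), CCNA2 (0.54), CDC25B and the AURKA activator BORA. PLK1 had a value of 0.27 and the mitotic transcription factor FOXM1 0.0039, and neither passed in either fit (adjusted p = 0.659 and 0.998 without the class term). Levels of FOXM1 were 94.7, 104, 136 and 118 CPM in asynchronous replicates 1 to 4 and 95.5, 126, 117 and 116 CPM in G2 replicates 1 to 4. FOXM1 libraries of the groups overlapped.

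**Figure D3:**
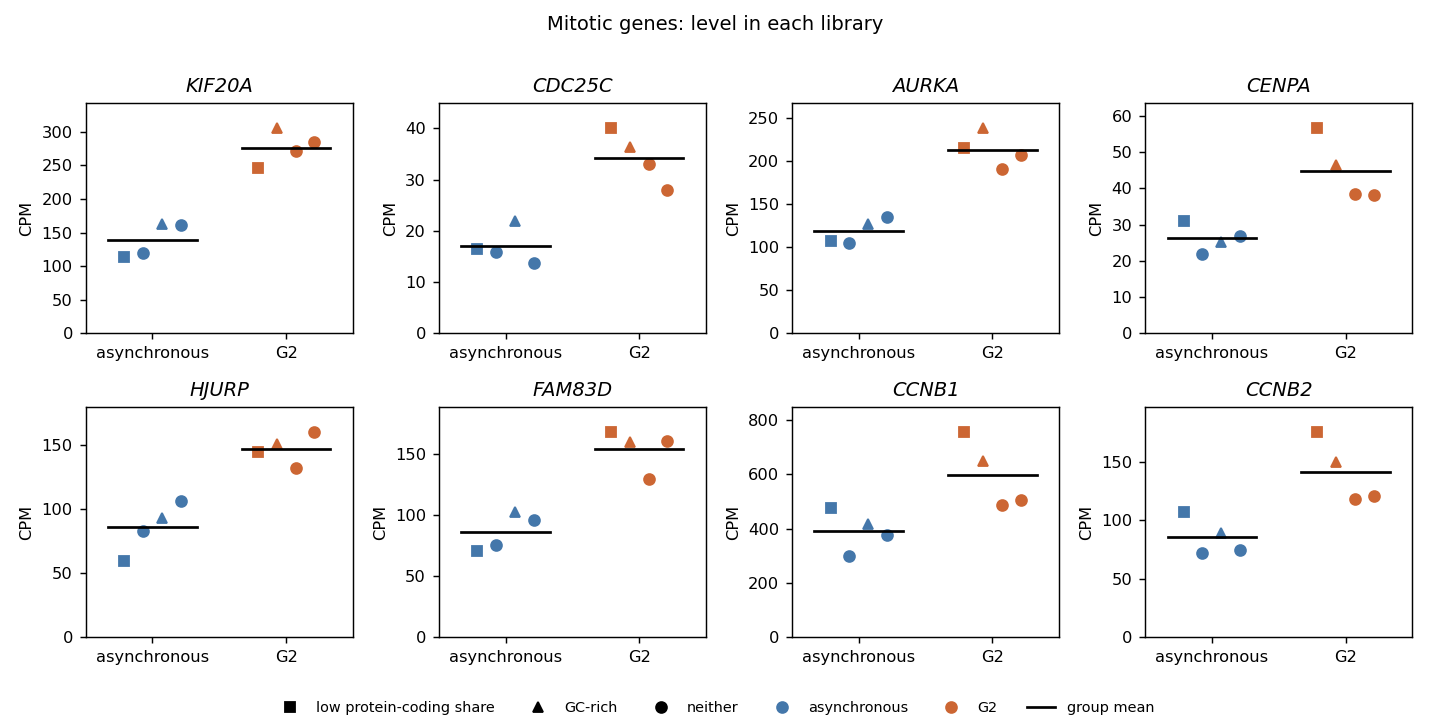
Level of 8 mitotic genes (y axes, CPM, from 0) in the 4 asynchronous and 4 G2 libraries; each point is a library, its shape the technical class and the black bar the group mean. In all 8 panels the G2 points lie above the asynchronous points; CCNB1 and CCNB2 were not called without the class term.

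Motor and spindle genes gave 2 further calls. Of 13 mitotic kinesin genes, 1 rose, KIF20A (chromosome 5, 138178719-138187715), which carries passenger proteins to the midzone in cytokinesis; the list median was 0.41. In CPM, KIF20A read 114, 119, 163 and 161 in asynchronous replicates 1 to 4 and 245, 305, 271 and 284 in G2 replicates 1 to 4. The lowest G2 library lay well above the highest asynchronous library, and the differences within classes were 1.10, 0.90 and 1.00 (log2 fold change 0.99, SE 0.181, adjusted p = 0.00726). KIF20A stayed called when any 1 library was left out. The call was lost when scaled by mitochondrial mRNA (adjusted p = 0.188), in the 8 libraries alone (0.137) or without both libraries of low protein-coding share (0.0560).

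Among 25 spindle assembly genes 1 rose, FAM83D, which recruits casein kinase 1 alpha to the spindle; the median was 0.35. FAM83D stood at 70.98, 75.5, 103 and 96.3 CPM in asynchronous and 168, 160.2, 129.6 and 161 CPM in G2 replicates 1 to 4. The groups did not overlap (log2 fold change 0.84, SE 0.213, adjusted p = 0.0435; within classes 1.24, 0.64 and 0.76). FAM83D missed the threshold without asynchronous replicates 1, 2 or 4 or G2 replicates 1, 2 or 4 (adjusted p = 0.0853 to 0.118), and in 7 of 18 other settings (adjusted p up to 0.362). With the class term 10 of the 25 were called higher and 1, HAUS7, lower. These included PSRC1 (log2 fold change 0.77), a spindle protein gene, TROAP (0.57), KPNA2 (0.71), an importin that holds spindle factors inactive, and NUSAP1. Of the kinesins 5 were called with it, KIF2C, a microtubule depolymerase, at a log2 fold change of 0.61. All 10 genes of the passenger complex and cytokinesis list had positive values in the fit without the class term and in each class, with a median of 0.37; 0 were called, and 3 with the class term, CDCA8 (0.64), RACGAP1 (0.52) and AURKB.

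Centromere and kinetochore genes gave 2 calls. Of 32 genes tested, 2 rose and none fell, with a median of -0.028. Both concern the centromeric histone: CENPA encodes it and HJURP its chaperone. CENPA reached 30.9, 21.8, 25.3 and 26.8 CPM in asynchronous replicates 1 to 4, and 56.5, 46.5, 38.5 and 38.1 CPM in G2 replicates 1 to 4. Levels of HJURP were 59.9, 83.1, 93.4 and 107 CPM in asynchronous replicates 1 to 4 and 145, 151, 132 and 160.0 CPM in G2 replicates 1 to 4. No library of one group overlapped the other in either gene. The log2 fold changes were nearly equal, 0.78 (SE 0.198, adjusted p = 0.0463) and 0.78 (SE 0.202, adjusted p = 0.0492), and the differences within classes were 0.86, 0.86 and 0.65 for CENPA and 1.27, 0.69 and 0.63 for HJURP. Both calls were close to the threshold. CENPA missed the threshold without asynchronous replicates 2, 3 or 4 or G2 replicates 1, 2, 3 or 4 (adjusted p = 0.0544 to 0.158), and in 7 of 18 other settings (adjusted p up to 0.233). HJURP lost its call with any 1 library left out (adjusted p = 0.0581 to 0.136), and in 8 of 18 other settings (adjusted p up to 0.488). The class term called 6 members higher, among them NDC80 and NUF2 of the outer kinetochore, and CENPH lower.

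Other mitotic lists gave no calls without the class term. Among 27 genes of the spindle checkpoint and the anaphase promoting complex 0 were called (median 0.071; 3 higher with the class term), and among 21 of condensin, cohesin and mitotic chromatin 0 (median -0.047; TOP2A higher and STAG1 lower with the class term). CDC20, the activator of that complex, had a log2 fold change of 0.071 and UBE2C, its ubiquitin carrier, 0.55. Transcripts of MKI67, a proliferation marker, differed by technical class more than by group. MKI67 stood at 276, 748, 103 and 957 CPM in asynchronous and 279, 102, 909.8 and 903 CPM in G2 replicates 1 to 4. The lowest values of each group were those of the GC-rich pair and the highest those of the class with neither skew, and the differences within classes were 0.016, -0.0099 and 0.099. TOP2A, which untangles sister chromatids, ran from 76.6 to 468 CPM over the 8 libraries, and yet was higher in G2 in each class, by 1.20, 0.64 and 0.56.

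Promoter sequences are shown for 3 genes that rose or were called with the class term and hold a CHR, for KIF20A as the mitotic gene with the smallest adjusted p, and for E2F1 as the replication-phase factor that fell. Each runs from 250 bases before to 50 bases after the start site on the gene's strand (RefSeq, GRCh38.p14), in lower case. Capitals mark every match on either strand. The CHR was searched as TTTGAA and with the variant spelled TTCGAA, the CCAAT box by its name, and the E-box as CACGTG. The E2F site was searched as TTGGCGC, with the next variant spelled TTCCCGC and the last variant spelled TTCGCGC. CENPA is at chr2:26785806-26786105 (+ strand), HJURP at chr2:233854486-233854785 (- strand), CCNB2 at chr15:59104896-59105195 (+ strand), KIF20A at chr5:138178862-138179161 (+ strand) and E2F1 at chr20:33686336-33686635 (- strand).
CENPA: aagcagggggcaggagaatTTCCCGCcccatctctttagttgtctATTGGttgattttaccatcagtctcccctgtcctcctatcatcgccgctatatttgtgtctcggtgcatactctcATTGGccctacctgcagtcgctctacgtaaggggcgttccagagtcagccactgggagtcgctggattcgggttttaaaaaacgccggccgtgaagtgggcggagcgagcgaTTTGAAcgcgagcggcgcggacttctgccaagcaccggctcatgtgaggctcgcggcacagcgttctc
HJURP: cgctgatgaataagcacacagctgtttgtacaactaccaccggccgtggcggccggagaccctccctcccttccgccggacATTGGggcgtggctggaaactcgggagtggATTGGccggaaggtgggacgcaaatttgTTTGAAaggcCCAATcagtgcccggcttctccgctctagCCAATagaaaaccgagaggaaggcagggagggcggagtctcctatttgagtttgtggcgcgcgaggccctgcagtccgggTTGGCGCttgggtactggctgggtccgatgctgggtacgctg
CCNB2: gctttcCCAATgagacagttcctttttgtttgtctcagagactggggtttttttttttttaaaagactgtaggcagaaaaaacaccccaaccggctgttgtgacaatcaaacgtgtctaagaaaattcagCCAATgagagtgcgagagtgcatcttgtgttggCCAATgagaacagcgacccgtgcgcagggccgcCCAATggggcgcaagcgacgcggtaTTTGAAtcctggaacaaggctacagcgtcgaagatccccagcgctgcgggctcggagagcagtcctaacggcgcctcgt
KIF20A: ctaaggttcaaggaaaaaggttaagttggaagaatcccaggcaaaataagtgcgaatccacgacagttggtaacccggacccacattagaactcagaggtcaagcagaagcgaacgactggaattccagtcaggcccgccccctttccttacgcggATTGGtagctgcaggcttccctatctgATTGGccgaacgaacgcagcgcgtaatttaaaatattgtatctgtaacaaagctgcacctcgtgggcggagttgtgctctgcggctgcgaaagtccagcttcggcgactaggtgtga
E2F1: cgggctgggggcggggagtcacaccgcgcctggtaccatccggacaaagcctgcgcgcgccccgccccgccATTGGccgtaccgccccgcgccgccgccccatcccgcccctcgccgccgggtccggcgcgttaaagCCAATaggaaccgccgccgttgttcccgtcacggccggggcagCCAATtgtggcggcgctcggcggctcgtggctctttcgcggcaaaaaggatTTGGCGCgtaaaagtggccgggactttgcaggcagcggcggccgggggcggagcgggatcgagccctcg

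In CCNB2 a CHR began 29 bases before the start and CCAAT boxes 244, 120, 87 and 54 bases before it. In CENPA the CHR began 18 bases before the start, with CCAAT boxes on the other strand at 205 and 130. The CHR of HJURP lay farther upstream, at 111 bases, between CCAAT boxes. KIF20A had a pair of CCAAT boxes on the other strand, at 94 and 67 bases, and no match to these CHR letters in the window. An E2F match in E2F1 began 19 bases before the start. Of the 148 genes of the 7 mitotic lists, 128 had a promoter in the table, and 70 of those (54.7%) held a CHR match, against 4539 of 27305 genes with a promoter (16.6%); a CHR on the gene's strand from 60 before to 20 after the start was in 34 (26.6%), against 634 (2.32%). The share was 20 of 31 (64.5%) for members called higher with the class term and 50 of 95 (52.6%) for those not called. Among the 369 genes called higher in G2, 234 had a promoter and 38 of these (16.2%) held a CHR match, a share near that of all promoters. E2F letters were in 43 of 91 promoters (47.3%) of the replication and G1 lists, against 3047 of 27305 (11.2%). A CCAAT box on the other strand and the E2F letters TTGGCGC share 4 bases, so matches to both can overlap, and each was counted. A match describes letters in the window only.

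**Figure D4:**
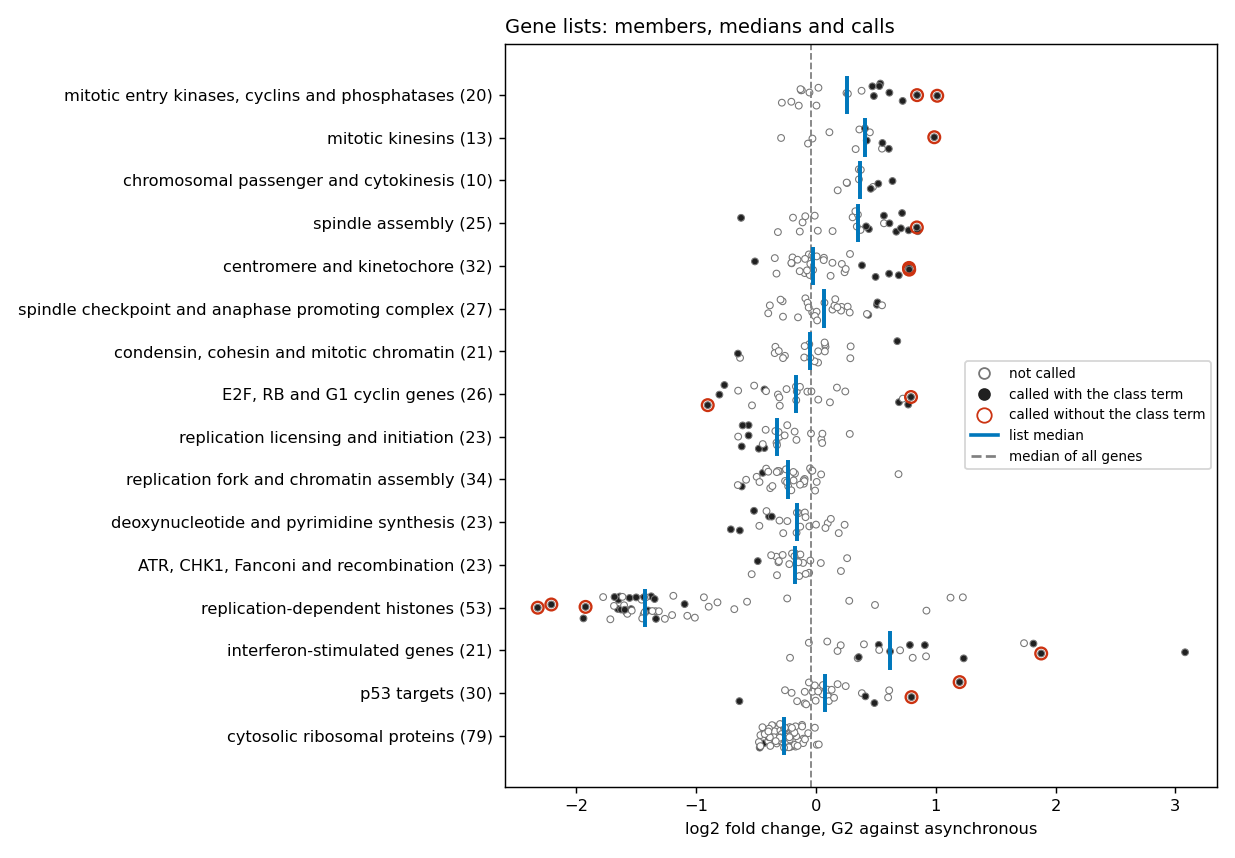
Log2 fold change of G2 over asynchronous cells (x axis) for the members of 16 gene lists (y axis, number tested in parentheses); each point is a gene, filled where it was called with the class term and ringed in red where called without it, with blue bars for list medians and a dashed line for the median of all genes. Mitotic entry, kinesin, cytokinesis and spindle lists lie to the right of the dashed line, replication lists a little to its left and replication-dependent histones far to its left.

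Genes of DNA replication had mostly negative values, as had 54.9% of all genes tested, and, apart from their regulator, no calls. E2F1 (chromosome 20, 33675683-33686404) fell. E2F1 was at 41.9, 33.9, 49.6 and 27.2 CPM in asynchronous replicates 1 to 4 and at 18.3, 25.6, 18.7 and 19.03 CPM in G2 replicates 1 to 4. The highest G2 library, the GC-rich replicate 2, was below the lowest asynchronous library, and the differences within classes were -1.17, -0.94 and -0.68 (log2 fold change -0.90, SE 0.189, adjusted p = 0.0150). E2F1 missed the threshold without G2 replicates 1 or 4 (adjusted p = 0.0576 to 0.0597), and in 4 of 18 other settings (adjusted p up to 0.240). E2F2, its close relative, also showed no overlap. Levels of E2F2 were 35.1, 41.3, 46.9 and 30.3 CPM in asynchronous replicates 1 to 4 and 18.4, 27.5, 23.2 and 18.6 CPM in G2 replicates 1 to 4. It missed the threshold (log2 fold change -0.81, SE 0.233, adjusted p = 0.0805) and was called lower with the class term (adjusted p = 0.00178). Of the 26 genes of the E2F, RB and G1 cyclin list, 1 rose and 1 fell, with a median of -0.17. The gene that rose was CDKN2D, which encodes an inhibitor of CDK4 and CDK6 (log2 fold change 0.79, SE 0.194, adjusted p = 0.0372; within classes 0.99, 0.37 and 0.84). In CPM, CDKN2D read 7.95, 6.74, 8.87 and 5.22 in asynchronous replicates 1 to 4 and 16.3, 11.6, 11.4 and 10.6 in G2 replicates 1 to 4. CDKN2D missed the threshold without asynchronous replicates 1, 2 or 4 or G2 replicates 1, 2, 3 or 4 (adjusted p = 0.0532 to 0.142), and in 8 of 18 other settings (adjusted p up to 0.307). The related inhibitor genes CDKN2C and CDKN2B were called higher with the class term, and CCND1, the gene of cyclin D1 (-0.76), and CDK4 lower.

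LIN52, a subunit of the MuvB core that binds CHR elements, was also among the genes that fell. LIN52 was at 17.7, 19.95, 17.6 and 15.2 CPM in asynchronous replicates 1 to 4 and at 9.19, 12.01, 11.8 and 9.47 CPM in G2 replicates 1 to 4. The groups did not overlap (log2 fold change -0.73, SE 0.178, adjusted p = 0.0358; within classes -0.91, -0.53 and -0.70). LIN52 was not called without asynchronous replicates 1, 2, 3 or 4 or G2 replicates 1, 3 or 4 (adjusted p = 0.0521 to 0.124), nor in 8 of 18 other settings (adjusted p up to 0.383).

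Of 23 genes of replication licensing and initiation 0 were called and 19 had negative values, with a median of -0.33; the class term called 6 lower and none higher, namely MCM2, MCM3, MCM5, MCM7, CDT1 and ORC1. MCM7, a subunit of the replicative helicase, showed no overlap. Levels of MCM7 were 550.4, 480.0, 772 and 518 CPM in asynchronous replicates 1 to 4 and 383, 472, 324 and 339.8 CPM in G2 replicates 1 to 4. Its lowest asynchronous library stood only just above its highest G2 library, and they belonged to different classes (log2 fold change -0.61, SE 0.194, adjusted p = 0.120; differences within classes -0.52, -0.71 and -0.59). CDT1, which loads the helicase, had a log2 fold change of -0.56, MCM5 of -0.62 and MCM2 of -0.56. CDC6, the other loader, was at -0.26 and did not pass in either fit.

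Among 34 genes of the fork and chromatin assembly 0 were called and 31 had negative values (median -0.24; RFC2 and POLD3 lower with the class term). PCNA, the sliding clamp, did not pass in either fit (log2 fold change -0.19, SE 0.296, adjusted p = 0.894). In CPM, PCNA read 535, 306, 284 and 275 in asynchronous replicates 1 to 4 and 448, 318, 227 and 235 in G2 replicates 1 to 4. Asynchronous replicate 1 and G2 replicate 1, the pair of low protein-coding share, held the highest values of their groups. Of 23 genes of deoxynucleotide and pyrimidine synthesis 0 were called (median -0.16). DHODH, the mitochondrial step of pyrimidine synthesis, came nearest. DHODH stood at 28.1, 25.5, 38.2 and 30.8 CPM in asynchronous and 16.5, 23.2, 15.99 and 19.2 CPM in G2 replicates 1 to 4. There was no overlap, and the differences within classes were close to each other at -0.75, -0.71 and -0.66 (log2 fold change -0.71, SE 0.194, adjusted p = 0.0629). DUT, UCK2, CTPS1 and DTYMK were the other members called lower with the class term. Genes that supply deoxynucleotides most directly did not separate: TYMS had a log2 fold change of -0.16, RRM2 of -0.087 and TK1 of 0.0002, each with overlapping libraries. In the list of ATR, CHK1, Fanconi and recombination genes 0 of 23 were called (median -0.17), and CHEK2 was lower with the class term (-0.49). The class term called 3.61% of all genes tested lower, so 1 of 23 here and 2 of 34 for the fork are near that share.

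Replication-dependent histone genes had the median farthest from 0 of the lists with at least 5 tested genes, and a wide spread. These intronless genes make mRNAs that end in a stem-loop in place of a poly(A) tail. Of 53 tested, 3 fell, H2BC18, H4C1 and H2BC5, and none rose; 48 had negative values, the median was -1.43, and the class term called 21 lower. With that term and the 8 libraries alone, H4C1 was called (adjusted p = 0.0296) and H2BC18 (0.0772) and H2BC5 (0.0673) were not. H4C1 was at 459, 58.9, 247 and 112 CPM in asynchronous replicates 1 to 4 and at 57.8, 67.3, 33.9 and 30.6 CPM in G2 replicates 1 to 4. H2BC18 reached 1111, 102, 744 and 359 CPM in asynchronous replicates 1 to 4, and 131, 170.2, 81.4 and 79.8 CPM in G2 replicates 1 to 4. Asynchronous replicate 2 lay among the G2 libraries while replicates 1 and 3 lay several fold above them, so the groups overlapped. For H4C1 the differences within classes were -2.98, -1.87 and -1.32 (log2 fold change -2.21, SE 0.496, adjusted p = 0.0224), and for H2BC18 -3.08, -2.12 and -1.24 (log2 fold change -2.32, SE 0.526, adjusted p = 0.0238). The list median was -2.14 between the libraries of low protein-coding share, -1.05 between the GC-rich ones and -0.52 in the class with neither skew, so its sign was the same in each and its size differed. Histone share of counts moved with the library too, at 2.45%, 0.351%, 1.97% and 0.96% in asynchronous replicates 1 to 4 and 0.688%, 0.982%, 0.402% and 0.376% in G2 replicates 1 to 4; the part of library composition in these differences was not tested.

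By histone type, medians were -1.40 for 13 H2A, -1.58 for 16 H2B, -1.52 for 10 H3, -1.34 for 11 H4 and -1.38 for 3 H1 genes, so no type stood apart. H4C1 was not called without asynchronous replicate 1 or G2 replicates 1, 3 or 4 (adjusted p = 0.0560 to 0.0976), nor in 7 of 18 other settings (adjusted p up to 0.202). H2BC18 missed the threshold without asynchronous replicate 1 or G2 replicates 1, 3 or 4 (adjusted p = 0.0634 to 0.0924), and in 9 of 18 other settings (adjusted p up to 0.416). The call of H2BC5 was lost without asynchronous replicate 1 or G2 replicates 1, 3 or 4 (adjusted p = 0.0760 to 0.116), and in 9 of 18 other settings (adjusted p up to 0.349). Near-identical copies share reads, so single histone genes are uncertain. Of 11 replication-independent variants 0 were called (median -0.16; 1 higher and 1 lower with the class term). SLBP, the gene of the protein that binds the histone stem-loop, did not pass, at -0.34 on the log2 scale (adjusted p = 0.593). Of 7 genes of histone mRNA transcription and processing 0 were called in either fit.

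**Figure D5:**
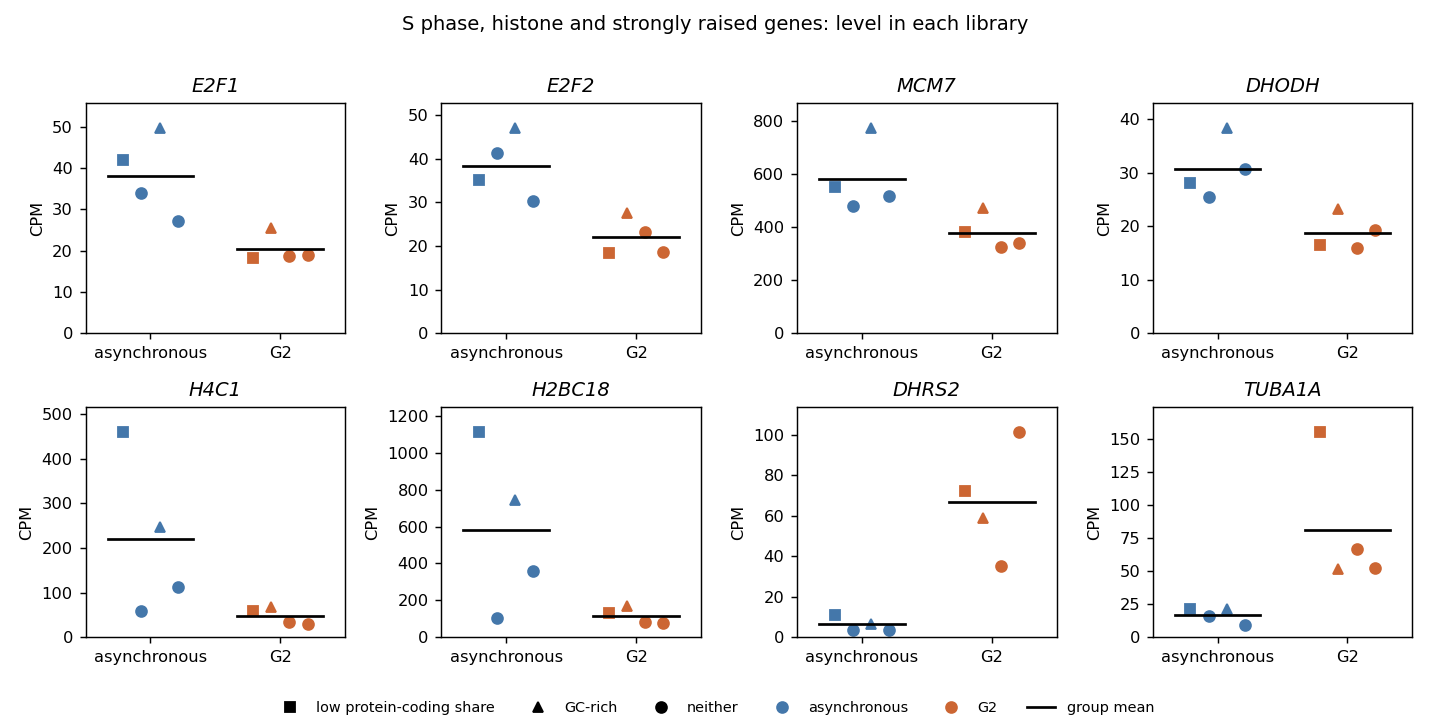
Level of 4 replication-phase genes, 2 histone genes and 2 strongly raised genes (y axes, CPM, from 0) in each library; colours, shapes and bars as in the plot of mitotic genes. E2F1, E2F2, MCM7 and DHODH lie lower in G2 without overlap, the histone panels overlap through asynchronous replicate 2, and DHRS2 and TUBA1A lie higher in every G2 library.

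Among called protein-coding genes above a limit on level and without overlap, the largest rises were outside the cell cycle lists. The level was averaged over both groups, so a gene low in asynchronous cells could pass through its G2 libraries. Ranking by size of rise therefore favours such genes. DHRS2, SLC2A3 and IRAG1 were low in asynchronous cells, while CYP24A1 was not. DHRS2 (chromosome 14, 23630115-23645639), a short-chain dehydrogenase, led the called protein-coding genes that reached a mean log2 CPM of 3 and had no overlap. DHRS2 was at 11.1, 3.70, 6.77 and 3.75 CPM in asynchronous replicates 1 to 4 and at 71.98, 58.97, 35.3 and 101 CPM in G2 replicates 1 to 4. The lowest G2 library was well above the highest asynchronous one, and the differences within classes were 2.64, 3.03 and 3.83 (log2 fold change 3.41, SE 0.393, adjusted p = 0.000363). DHRS2 was the gene of those named here that was also called when the 8 libraries were fitted alone (adjusted p = 0.0481). The other synchronised groups held it at 63.5 ± 6.33 CPM with MG132, 76.4 ± 32.1 CPM with bortezomib and 64.3 ± 7.59 CPM with MG132 and α-amanitin (SD, n = 4). TUBA1A, a neuronal alpha-tubulin with close paralogs, was second. TUBA1A reached 21.3, 15.9, 21.2 and 9.21 CPM in asynchronous replicates 1 to 4, and 155, 51.6, 66.5 and 52.6 CPM in G2 replicates 1 to 4. G2 replicate 1 stood far above the other 3 G2 libraries, all of which were above the asynchronous ones (log2 fold change 2.27, SE 0.441, adjusted p = 0.00946; within classes 2.84, 1.26 and 2.24). Of 15 tubulin genes TUBA1A was the 1 that rose; with the class term TUBB2A, TUBB2B, TUBB3 and TUBB6 were called higher as well.

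Next in size came NEURL1B, a ubiquitin ligase gene (log2 fold change 1.87, SE 0.356, adjusted p = 0.00849), SLC2A3, which encodes the glucose transporter GLUT3 (log2 fold change 1.71, SE 0.355, adjusted p = 0.0138), and TGM2, the gene of tissue transglutaminase (log2 fold change 1.53, SE 0.270, adjusted p = 0.00642). Levels of SLC2A3 were 2.50, 7.18, 9.97 and 7.77 CPM in asynchronous replicates 1 to 4 and 15.03, 27.1, 18.8 and 29.3 CPM in G2 replicates 1 to 4. IRAG1, which encodes a cGMP kinase substrate at the inositol trisphosphate receptor, had the second smallest adjusted p of the genes named here. In CPM, IRAG1 read 5.30, 8.00, 8.87 and 6.11 in asynchronous replicates 1 to 4 and 20.5, 19.1, 17.2 and 22.8 in G2 replicates 1 to 4. Its libraries were tight in both groups (log2 fold change 1.49, SE 0.186, adjusted p = 0.000479; within classes 1.85, 1.06 and 1.44). OPTN, an autophagy receptor, rose by 1.34 and NEU1, the lysosomal sialidase, by 1.10; they were the 2 of 21 lysosome list genes that rose, and the list median was 0.019. Also among the 15 highest were SLC16A6, CRYBG2, MAP3K12, UBALD2, KRT15, CYP24A1, TP53I3 and ANO9, with log2 fold changes from 1.19 to 1.30. CYP24A1 encodes the vitamin D 24-hydroxylase. CYP24A1 stood at 64.01, 90.97, 119 and 68.04 CPM in asynchronous and 220.1, 178, 178 and 216 CPM in G2 replicates 1 to 4. G2 libraries all lay above asynchronous ones (log2 fold change 1.21, SE 0.279, adjusted p = 0.0262; within classes 1.77, 0.58 and 1.31). DHRS2, TUBA1A, NEURL1B, TGM2, IRAG1, OPTN, CRYBG2 and MAP3K12 were called with each library left out in turn. In other settings DHRS2 lost its call in the 4 libraries of neither skew (adjusted p = 0.107). The 8 libraries alone ended the other 7 calls (adjusted p = 0.0636 to 0.109), and mitochondrial mRNA scaling those of OPTN, NEURL1B, TGM2 and MAP3K12 (adjusted p = 0.0528 to 0.0720). The omission of both libraries of low protein-coding share ended the calls of TUBA1A, NEURL1B, TGM2 and MAP3K12 (adjusted p = 0.0603 to 0.0791), and a block for the code letter that of MAP3K12 (adjusted p = 0.101). The call of SLC2A3 was lost without G2 replicate 4 (adjusted p = 0.0520), and in 2 of 18 other settings (adjusted p up to 0.151). UBALD2 was not called without asynchronous replicate 4 (adjusted p = 0.0564), nor in 4 of 18 other settings (adjusted p up to 0.164). CYP24A1 missed the threshold without asynchronous replicates 1, 2 or 4 or G2 replicates 1 or 4 (adjusted p = 0.0593 to 0.103), and in 4 of 18 other settings (adjusted p up to 0.225). The call of NEU1 was lost without asynchronous replicates 2 or 4 or G2 replicate 1 (adjusted p = 0.0624 to 0.0803), and in 4 of 18 other settings (adjusted p up to 0.155). KRT15 was not called without asynchronous replicates 1, 2, 3 or 4 or G2 replicates 1, 2 or 4 (adjusted p = 0.0578 to 0.162), nor in 7 of 18 other settings (adjusted p up to 0.283). TP53I3 missed the threshold without asynchronous replicates 2, 3 or 4 or G2 replicates 1, 2 or 4 (adjusted p = 0.0627 to 0.168), and in 4 of 18 other settings (adjusted p up to 0.163). The call of ANO9 was lost without asynchronous replicates 2, 3 or 4 or G2 replicates 1 or 4 (adjusted p = 0.0720 to 0.160), and in 9 of 18 other settings (adjusted p up to 0.184). SLC16A6 lost its call with any 1 library left out (adjusted p = 0.0532 to 0.131), and in 7 of 18 other settings (adjusted p up to 0.199).

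Among called protein-coding genes without overlap that reached a mean log2 CPM of 3, 13 fell. They included E2F1, LIN52, THEM6, CUTC, SAMD1, MBOAT1, HYPK, RSAD1, CHPF, HNRNPD, CHRAC1 and SCFD2, with log2 fold changes from -1.08 to -0.63. THEM6, a thioesterase superfamily gene, fell most. Levels of THEM6 were 29.8, 15.3, 30.3 and 18.3 CPM in asynchronous replicates 1 to 4 and 13.2, 13.7, 8.93 and 8.63 CPM in G2 replicates 1 to 4. Its highest G2 library was just below its lowest asynchronous one (log2 fold change -1.08, SE 0.247, adjusted p = 0.0254; within classes -1.15, -1.12 and -0.90). THEM6 missed the threshold without asynchronous replicates 1 or 3 or G2 replicates 3 or 4 (adjusted p = 0.0620 to 0.0986), and in 6 of 18 other settings (adjusted p up to 0.205). CHRAC1, which encodes a histone-fold subunit of a chromatin remodelling complex, was close to the threshold (log2 fold change -0.70, SE 0.181, adjusted p = 0.0492). The call of CHRAC1 was lost without asynchronous replicates 1, 2, 3 or 4 or G2 replicates 1, 3 or 4 (adjusted p = 0.0525 to 0.166), and in 10 of 18 other settings (adjusted p up to 0.492). HNRNPD, the gene of an RNA-binding protein that destabilises AU-rich mRNAs, showed the separation. HNRNPD was at 132, 117, 111 and 149.6 CPM in asynchronous replicates 1 to 4 and at 64.9, 79.6, 80.2 and 82.1 CPM in G2 replicates 1 to 4. All asynchronous libraries were above all G2 libraries (log2 fold change -0.73, SE 0.180, adjusted p = 0.0374; within classes -1.02, -0.48 and -0.70). CHPF, which polymerises chondroitin, fell as well (log2 fold change -0.79, SE 0.206, adjusted p = 0.0494). HNRNPD missed the threshold without asynchronous replicates 1, 2 or 4 or G2 replicates 1, 2, 3 or 4 (adjusted p = 0.0593 to 0.136), and in 8 of 18 other settings (adjusted p up to 0.431). The call of CUTC was lost without asynchronous replicates 1 or 4 or G2 replicates 1, 3 or 4 (adjusted p = 0.0694 to 0.0981), and in 6 of 18 other settings (adjusted p up to 0.252). SAMD1 was not called without asynchronous replicates 1, 3 or 4 or G2 replicates 1, 2, 3 or 4 (adjusted p = 0.0555 to 0.120), nor in 7 of 18 other settings (adjusted p up to 0.357). MBOAT1 lost its call with any 1 library left out (adjusted p = 0.0510 to 0.120), and in 10 of 18 other settings (adjusted p up to 0.369). HYPK missed the threshold without asynchronous replicates 1 or 4 or G2 replicates 1, 3 or 4 (adjusted p = 0.119 to 0.141), and in 10 of 18 other settings (adjusted p up to 0.432). The call of RSAD1 was lost without asynchronous replicates 3 or 4 or G2 replicates 1, 3 or 4 (adjusted p = 0.0547 to 0.0725), and in 7 of 18 other settings (adjusted p up to 0.408). CHPF was not called without asynchronous replicates 1, 3 or 4 or G2 replicates 1, 3 or 4 (adjusted p = 0.0936 to 0.164), nor in 9 of 18 other settings (adjusted p up to 0.415). SCFD2 missed the threshold without asynchronous replicates 2 or 4 or G2 replicates 1, 3 or 4 (adjusted p = 0.0599 to 0.142), and in 8 of 18 other settings (adjusted p up to 0.578). Scaling by total library size ended the calls of E2F1, LIN52, RSAD1, HYPK, SAMD1, MBOAT1, CHPF, HNRNPD, CHRAC1 and SCFD2 (adjusted p = 0.0655 to 0.260) and not those of THEM6 and CUTC.

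Stress and signalling lists gave few calls. Of 30 p53 targets 2 rose and none fell (median 0.078): DDB2, a DNA damage recognition gene (log2 fold change 0.80, SE 0.184, adjusted p = 0.0259; within classes 0.97, 0.56 and 0.79), and TP53I3, a quinone oxidoreductase gene (log2 fold change 1.20, SE 0.301, adjusted p = 0.0418). In CPM, DDB2 read 42.2, 32.7, 39.6 and 27.4 in asynchronous replicates 1 to 4 and 83.01, 58.8, 48.7 and 56.2 in G2 replicates 1 to 4. G2 replicate 3 stood closest to the asynchronous libraries. DDB2 was not called without asynchronous replicates 2 or 4 or G2 replicates 1 or 4 (adjusted p = 0.0520 to 0.106), nor in 5 of 18 other settings (adjusted p up to 0.233). CDKN1A, the p53 target that encodes p21, did not separate. CDKN1A was at 147, 128, 104 and 70.2 CPM in asynchronous replicates 1 to 4 and at 156, 123, 96.8 and 108 CPM in G2 replicates 1 to 4. The libraries overlapped throughout (log2 fold change 0.11, SE 0.273, adjusted p = 0.941), as they did for MDM2 (0.058) and GDF15 (-0.0027). The class term called 4 p53 targets higher, FAS (0.49) and FDXR (0.41) besides these 2, and 1 lower, GADD45A (-0.64). Of 24 immediate early genes 0 were called (median -0.14; 3 lower with the class term); EGR1 was at 71.1 CPM in asynchronous replicate 2 and between 4.76 and 15.8 CPM in the other 7 libraries. Among 17 NF-kB targets 0 were called (3 higher and 1 lower with the class term), with ICAM1 nearest (log2 fold change 0.88, SE 0.234, adjusted p = 0.0539).

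Interferon-stimulated genes had a median of 0.62, and 19 of 21 had positive values. Of them 1 rose, OASL, an oligoadenylate synthetase-like antiviral gene, and none fell; the class term called 9 higher. OASL reached 1.82, 1.29, 1.82 and 0.751 CPM in asynchronous replicates 1 to 4, and 8.30, 3.82, 5.34 and 3.36 CPM in G2 replicates 1 to 4. All G2 libraries were above all asynchronous ones at these low levels (log2 fold change 1.88, SE 0.440, adjusted p = 0.0284; within classes 1.93, 0.90 and 1.67). OASL was not called without asynchronous replicates 1, 2 or 4 or G2 replicates 1 or 3 (adjusted p = 0.0522 to 0.111), nor in 4 of 18 other settings (adjusted p up to 0.183). IFI6 differed by 1.23 on the log2 scale (adjusted p = 0.134) and IRF9, a subunit of the interferon response factor, 0.91 (adjusted p = 0.125). The list summed to 330.4, 293, 274 and 244 CPM in asynchronous replicates 1 to 4 and to 459.8, 354, 366 and 376 CPM in G2 replicates 1 to 4, with no overlap. Such separation was not particular to this list. Sums of the mitotic entry list were also higher in G2 without overlap. Those of the E2F, RB and G1 cyclin, replication fork and cytosolic heat shock lists were lower without overlap.

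In lists of general metabolism, SLC2A3 was the 1 of 23 hypoxia and glycolysis genes that rose (median 0.14; 1 higher and 2 lower with the class term). Of 22 cytosolic heat shock genes 0 were called (median -0.36; 4 lower with the class term), of 79 cytosolic ribosomal protein genes 0 (77 negative, median -0.27; 4 lower with the class term) and of 13 mitochondrial mRNAs 0 in either fit (median -0.45). For the ribosomal protein genes, 4 of 79 is near the 3.61% of all genes tested that the class term called lower. Mitochondrial mRNAs went opposite ways within classes, at -1.44, 0.31 and -0.18. ATF4 targets (22 tested), sterol synthesis genes (21), Wnt targets (9), EGFR ligands and RAS feedback genes (15), YAP and TEAD targets (20) and hemidesmosome genes (8) had 0 calls. With the class term 2 ATF4 targets were lower, 3 YAP and TEAD targets and 2 hemidesmosome genes higher, and 1 of the EGFR and RAS list in each direction; sterol and Wnt lists had 0.

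Epithelial markers of the labelled colorectal line were present: 15 of 18 were tested and summed to 3725 to 6183 CPM over the 8 libraries. The mean sum was 5436 CPM in asynchronous and 4873 CPM in G2 libraries. The list median was 0.022, with 9 positive and 6 negative values, and 1 member rose without the class term. This was KRT20, a keratin of intestinal epithelium (log2 fold change 1.84, SE 0.385, adjusted p = 0.0153, within classes 1.48, 1.41 and 1.33). ESRP1, an epithelial splicing regulator, was called higher with the class term (0.72). EPCAM did not pass (-0.39). KRT20 missed the threshold without asynchronous replicates 2 or 4 or G2 replicate 1 (adjusted p = 0.0557 to 0.0570), and in 2 of 18 other settings (adjusted p up to 0.0636). Of markers of other cell types, 1 of 10 fibroblast, 3 of 9 leukocyte and 1 of 8 endothelial genes were tested. COL1A1 rose (within classes 1.28, 0.44 and 1.28), with 3.17 to 4.13 CPM in asynchronous and 5.80 to 10.3 CPM in G2 libraries. VWF was also called higher (log2 fold change 2.41, adjusted p = 0.00687), with 0.0712 to 0.229 CPM in asynchronous and 0.583 to 1.48 CPM in G2 libraries. At these levels near the floor, VWF could pass the filter only through synchronised libraries, so its direction was largely fixed in advance. The tested leukocyte markers summed to 1.94 to 3.93 CPM and 3.49 to 4.37 CPM and gave 0 calls. The call of COL1A1 was lost without asynchronous replicate 4 (adjusted p = 0.0581), and in 4 of 18 other settings (adjusted p up to 0.103). That of VWF was lost in the 8 libraries alone (adjusted p = 0.0784) and with a block for the code letter (0.0928). The other markers of these 3 lists did not pass the filter on low counts, and the part of other cells in the 2 calls was not tested.

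Repeats were few among the calls. Of 1076 subfamilies tested 1 rose (0.0929%) and none fell, and 25 had an unadjusted p under 0.05. The libraries of the groups did not overlap for 5 subfamilies with G2 above (0.465%) and 2 with G2 below (0.186%). The subfamily that rose was HERV9-int, the internal part of an endogenous retrovirus, named after its values were seen because it is the single call. HERV9-int was at 2.16, 2.01, 1.35 and 2.48 CPM in asynchronous replicates 1 to 4 and at 4.78, 7.95, 5.40 and 8.87 CPM in G2 replicates 1 to 4. All G2 libraries were above all asynchronous ones (log2 fold change 1.75, SE 0.313, adjusted p = 0.0192; within classes 0.99, 2.19 and 1.44). HERV9-int was not called without asynchronous replicates 1, 2 or 3 or G2 replicates 2 or 4 (adjusted p = 0.0780 to 0.113), nor in 6 of 18 other settings (adjusted p up to 0.409). LTR12 elements are the long terminal repeats of the same family. LTR12D reached 6.53, 5.93, 5.48 and 8.03 CPM in asynchronous replicates 1 to 4, and 11.7, 18.2, 12.98 and 14.7 CPM in G2 replicates 1 to 4. LTR12D showed no overlap and did not pass (log2 fold change 1.15, SE 0.257, adjusted p = 0.127). LTR12C had a log2 fold change of 0.61 and overlapping libraries. Of the other 5 LTR12 subfamilies LTR12 (0.77) and LTR12B (0.68) had positive values, LTR12E (-0.12), LTR12F (-0.36) and LTR12_ (-0.17) negative ones, and none passed. The class term with the 8 libraries alone called 1.37% of subfamilies higher. Among them were HERV9-int, LTR12D, LTR12C, LTR12 and LTR12B (adjusted p = 0.000709 to 0.0413). So were the related HERV9N-int (0.0253) and HERV9NC-int (0.00430), while LTR12E, LTR12F and LTR12_ were not. These were looked up after the values were seen.

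Most other repeats lay slightly below zero: 956 of 1076 had negative values, with a median of -0.31, and 130 of 131 L1 subfamilies, with a median of -0.46. L1HS, the youngest L1, ran from 7.51 to 56.5 CPM in asynchronous and 8.16 to 40.3 CPM in G2 libraries, so the groups overlapped (log2 fold change -0.48). AluY was at -0.17 and SVA_F at -0.27. In the GC-rich pair the median of all repeats was -0.028 against -0.21 and -0.34 in the other classes, and repeat share of counts was 5.68% and 6.02% in that pair against 7.30% to 9.03% in the other 6 libraries. With the class term and only these 8 libraries, 14 of 1024 subfamilies were called higher (1.37%) and 164 lower (16.0%), 66 of them L1; with the class term and all 20 libraries the count was again 1 higher and 0 lower.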

How the data were processed

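Total RNA of HCT-116 cells was extracted with TRIzol, treated with DNase and made into stranded total RNA libraries, as the labels' protocols state. The values deposited are unnormalised counts in 1 table of 41092 rows, with 39918 genes and 1174 repeat subfamilies. FastQC, cutadapt 1.18, STAR and hg38 are named in the submitters' processing notes; the counting tool, its strand setting and its treatment of multiply aligned reads are not given in the sources used, so antisense and overlapping genes, near-identical copies (tubulins, histones) and young repeats are uncertain. Of the genes, 38661 were placed with GENCODE 29. All 20 libraries were fitted with 1 mean per group in edgeR 4.0.16 (R 4.3.3; filterByExpr, TMM, robust quasi-likelihood, 15 residual degrees of freedom), and p-values were adjusted over 18959 genes and over 1076 repeats; BCV was 33.3%. CPM use TMM-scaled totals. Differences within classes are of log2(CPM + 0.5), with no test. Classes were a protein-coding share under 70% and a GC slope beyond 0.3. The closest libraries of 1 group, G2 replicates 3 and 4, still differed beyond sampling noise (chi-square over its degrees of freedom 11.2), so none was counted as a duplicate. The main fit was also run on simulated counts with known changes in genes above a log2 CPM of 3. The simulation held no library classes or GC skew, so it does not speak for those or for changes at lower levels. Promoters came from RefSeq by symbol; CDC25C, which has 4 entries, was counted by its first. The comparison, members and lists were chosen with earlier results of these data known. Named genes were the 15 highest and 15 lowest called genes that code for protein, reach a mean log2 CPM of 3 and have no overlap, up to 4 genes of each list by p, and a fixed set; class-term calls named beside them were chosen after their values were seen, and not every gene the rule takes is described. Alternatives were scaling by RLE, by total library size or by mitochondrial mRNA, no filter, a stricter one (at least 1 CPM in 4 samples), DESeq2 1.42.0, limma-voom (limma 3.58.1) with and without quality weights, the 8 libraries alone, separate fits, replicate and code letter blocks, a GC and length offset, the omission of the 4 GC-skewed libraries, a 2-fold minimum and each library left out. The class term, the 4 libraries of neither skew alone and the omission of both libraries of low protein-coding share were added after seeing the data.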

Additional observations from a re-analysis of the deposited data

Results flagged for a closer look

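Within each group of 4, single libraries that stood apart from the other 3 were sought over 114 measures, the genes and subfamilies described here and the library composition. Of 228 groups examined 21 held such a library, and chance alone gives such a library in about 1 in 20 groups. In 18 of the 21 the library belonged to the pair of low protein-coding share or to the GC-rich pair. These pairs hold 4 of the 8 libraries. The 18 also include the protein-coding shares of asynchronous replicate 1 and G2 replicate 1, which set their class. The count was thus partly fixed in advance, and nothing is concluded from it.

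G2 replicate 2, one of the GC-rich pair, was apart for KIF2C (276 CPM, others 218 to 222), E2F1 (25.6 CPM, others 18.3 to 19.0), UCK2 (116 CPM, others 88.7 to 92.3), CDC6 (194 CPM, others 137 to 143) and H2BC12 (383 CPM, others 143 to 174). Asynchronous replicate 3, the other GC-rich library, was apart for MCM5 (391 CPM, others 223 to 250.5) and for TNFAIP2 (43.1 CPM, others 21.9 to 23.1).

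G2 replicate 1 was apart for TUBA1A (155 CPM, others 51.6 to 66.5), NDRG1 (183 CPM, others 98.4 to 112), CDKN2D (16.3 CPM, others 10.6 to 11.6), HNRNPD (64.9 CPM, others 79.6 to 82.1), IFI6 (9.74 CPM, others 6.21 to 6.72) and TNFAIP2 (35.4 CPM, others 52.4 to 55.2). It also stood apart in protein-coding share (68.3%, others 80.2% to 82.2%) and in mitochondrial mRNA (0.793% of counts, others 1.20% to 1.23%). Asynchronous replicate 1 stood apart in protein-coding share (67.6%, others 80.1% to 80.7%), in PCNA (535 CPM, others 275.5 to 306) and in HERVH-int (657 CPM, others 409 to 436). TUBA1A was called without G2 replicate 1, and CDKN2D and HNRNPD were not (adjusted p = 0.142 and 0.129).

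The remaining cases were asynchronous replicate 2 for EGR1 (71.1 CPM, others 9.44 to 14.6) and RRM2 (488 CPM, others 560.5 to 573), and G2 replicate 4 for ICAM1 (10.1 CPM, others 8.38 to 8.49).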

How the results depend on the processing

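Counts of called genes (397; 369 higher and 28 lower) moved with the processing, and the cause was not tested. Total library size scaling gave 677 (663 and 14) and shifted the median of all genes by 0.16; mitochondrial mRNA scaling gave 149 (146 and 3), the strict filter 249 (235 and 14), DESeq2 714 (578 and 136), limma-voom with quality weights 3088 (2156 and 932), and the GC and length offset 1139 (668 and 471), so the share of higher calls fell from 92.9% to 58.6% with the offset, 69.8% with quality weights and 81.0% with DESeq2. Leaving out the 4 GC-skewed libraries gave 874 (706 and 168). The lower calls were 8 with no filter, 49 with genes and repeats fitted separately and 12 at a 2-fold minimum. The 8 libraries alone gave 8 genes, all higher and 0 lower, with 1668 at an unadjusted p under 0.05 and 13 repeats. A block for the undocumented code letter gave 110 (105 and 5). Within letters L and O, all 397 genes kept their called direction. Those libraries are among the ones that chose the genes, so this was largely fixed in advance and nothing is concluded from it. After seeing the data, the class term gave 2127 (1442 and 685), with the 8 libraries alone 3219 (1814 and 1405), the 4 libraries of neither skew 2023 (1439 and 584), and leaving out both libraries of low protein-coding share 112 (110 and 2). Leaving out 1 library gave 143 to 457 genes, 134 to 434 higher and 2 to 51 lower; the fewest calls came without asynchronous replicate 4, and counts moved by over 1.5 times also without asynchronous replicate 2 (243), G2 replicate 1 (205) and G2 replicate 4 (185). 

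The replicate block gave 238 genes (231 and 7) and 0 repeats, but the numbers do not pair the samples: deviations of same-numbered libraries correlated at 0.805, -0.766, -0.650 and 0.780. Of repeats (1, higher), 2 were called with no filter, 3 with DESeq2 (2 higher and 1 lower), 4 with quality weights, and 0 with limma-voom, the 8 libraries alone, separate fits, the letter block and without the 4 GC-skewed libraries. The class term with 8 libraries called 178 (14 higher and 164 lower) and the 4 libraries of neither skew 141 (6 and 135). Leaving out 1 library gave 0 to 1. Of 135 list members called with or without the class term 2 changed sign under any alternative, STAG1 with the block for the code letter and ISG15 without G2 replicate 1, and 0 of the other called genes described singly did. The limit of depth lies in low genes: those at most 1 in log2 CPM rest on few reads per library.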
